A study of Homo sapiens with 3 samples.

Results

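The extracellular matrix gene loci were 37 genes for collagens, laminins and other matrix proteins, out of 20162 protein-coding genes, chosen by name as a functional group, with earlier results of these peaks known. A peak was counted at a locus when its centre lay within 100 kb of the transcription start site (TSS), and each peak was counted once. These windows held 319 of 82901 p300/CBP peaks in cells given a control siRNA (siCTL) and 197 of 39320 peaks in cells given siRNAs against Fra-1 (siFra-1).

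The peaks came from ChIP-seq of p300/CBP in MDA-MB-231, an established human breast cancer line of the triple-negative, basal b type. Cells received either 4.5 nM of 1 control siRNA or the same total dose of a mix of 3 siRNAs to Fra-1 (FOSL1), a Fos family protein that joins a Jun partner in the AP-1 dimer, and were fixed after 72 h. The question was where the acetyltransferases p300 and CBP, which mark active enhancers and promoters, sat on chromatin in cells given the control siRNA and in cells given siRNAs against Fra-1. Replicate immunoprecipitations were pooled, so each condition is 1 library and 1 list of positions on hg19, with no peak heights. The lists carry no expression values, so neither the fall of Fra-1 nor the identity of the cells could be checked in them.

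There was no replicate error against which to weigh a difference between siCTL and siFra-1, and no test was made. All intervals are 95% Clopper-Pearson intervals that cover counting error only, neighbouring peaks are not independent, and read depth is unknown. Peaks were called where the signal passed a fixed threshold, so a peak missing from a list is not a lack of signal.

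The extracellular matrix is the meshwork of secreted proteins that surrounds cells. Fibrillar collagens give it strength, laminins, collagen IV, nidogen and perlecan build the basement membrane under epithelia, and matricellular proteins such as CCN1 and CCN2 signal to cells through integrins. Breast carcinoma cells degrade, remodel and stiffen this matrix as they invade, and CCN1 and CCN2 are widely used target genes of the co-activators YAP and TAZ, which reach DNA through TEAD factors, often beside AP-1.

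Sequences of the regions on which the description turns are given first, read from GRCh37 (hg19). They were searched for the AP-1 motif (TGAGTCA, or TGACTCA on the other strand), the TEAD motif (GGAATG or CATTCC) and the RUNX motif (TGTGGT or ACCACA), each on both strands, with overlapping matches all counted. In 200 bp centred on the peak, AP-1 letters lay in 6.15% of all siCTL peaks and 9.08% of all siFra-1 peaks, TEAD letters in 13.2% and 17.4%, and RUNX letters in 15.6% and 17.6%. A match is a description of letters and not a measured binding site. Capitals mark AP-1 and TEAD motifs.

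The promoters of CCN1, CCN2 and LAMB3 are shown because they were the members with a peak of 250 bp or over within 1.5 kb of the TSS. The CCN1 stretch is chr1:86046144-86046443 on the plus strand and ends at the base before the TSS. The CCN2 stretch is chr6:132272513-132272751 on the minus strand, also ends at the base before the TSS, and holds 3 TEAD motifs. The LAMB3 stretch is the siFra-1 peak at chr1:209826302-209826601, given on the minus strand, and lies upstream of the TSS between genes.
CCN1 promoter: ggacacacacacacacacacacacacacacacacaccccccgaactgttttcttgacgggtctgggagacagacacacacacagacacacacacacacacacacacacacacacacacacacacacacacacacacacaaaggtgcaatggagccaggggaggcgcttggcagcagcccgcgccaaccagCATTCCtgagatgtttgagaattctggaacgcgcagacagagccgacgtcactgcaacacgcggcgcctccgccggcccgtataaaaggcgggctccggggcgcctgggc
CCN2 promoter: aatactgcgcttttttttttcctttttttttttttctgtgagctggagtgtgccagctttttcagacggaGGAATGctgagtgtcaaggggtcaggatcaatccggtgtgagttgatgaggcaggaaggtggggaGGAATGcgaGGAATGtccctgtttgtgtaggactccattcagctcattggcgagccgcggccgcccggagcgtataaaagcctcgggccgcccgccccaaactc
LAMB3 promoter: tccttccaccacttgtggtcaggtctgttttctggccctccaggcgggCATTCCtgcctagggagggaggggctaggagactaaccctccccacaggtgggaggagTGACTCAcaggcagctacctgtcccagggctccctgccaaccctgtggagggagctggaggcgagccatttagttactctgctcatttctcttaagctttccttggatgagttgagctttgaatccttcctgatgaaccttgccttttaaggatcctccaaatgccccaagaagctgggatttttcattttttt
At least 3 TEAD motifs lay in 18 of 20162 promoters, or 0.0893%, over the same 239 bp before the TSS, and at least 1 in 10.5%. In the 300 bp before the TSS, as for CCN1, 13.5% of promoters held at least 1 TEAD motif. Over the window of the LAMB3 peak, from 532 to 831 bp upstream, 3.93% of genes held an AP-1 motif and 15.1% a TEAD motif.

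The next stretches, each of 150 bp on the plus strand, hold the first AP-1 motif of wide peaks that the description names. The CCN1 stretch is chr1:86073121-86073270 and lies 26.6 kb downstream of the TSS, between genes, in the widest siCTL peak of all matrix loci. The COL13A1 stretch is chr10:71624285-71624434 in an intron of the gene. The LAMA3 stretch is chr18:21207441-21207590 in an intron of ANKRD29, in a peak found with siFra-1 and not with siCTL. The CCN2 stretch is chr6:132275965-132276114 in an intron of the non-coding gene LINC01013, where a TEAD motif is followed directly by an AP-1 motif. The FN1 stretch is chr2:216393389-216393538, far upstream of the gene.
CCN1 26.6 kb: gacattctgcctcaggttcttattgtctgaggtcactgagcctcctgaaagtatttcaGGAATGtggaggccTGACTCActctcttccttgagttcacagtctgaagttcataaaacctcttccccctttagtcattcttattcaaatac
COL13A1 62.7 kb: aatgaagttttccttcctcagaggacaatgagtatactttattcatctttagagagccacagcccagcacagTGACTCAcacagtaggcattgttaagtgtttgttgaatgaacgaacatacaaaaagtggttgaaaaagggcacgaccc
LAMA3 -62.0 kb: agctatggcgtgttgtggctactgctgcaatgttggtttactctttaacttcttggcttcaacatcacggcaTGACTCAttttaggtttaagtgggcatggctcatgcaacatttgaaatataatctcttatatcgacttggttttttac
CCN2 -3.44 kb: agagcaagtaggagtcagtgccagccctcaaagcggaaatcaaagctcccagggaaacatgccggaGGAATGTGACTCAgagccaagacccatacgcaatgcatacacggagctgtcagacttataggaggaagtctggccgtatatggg
FN1 -92.7 kb: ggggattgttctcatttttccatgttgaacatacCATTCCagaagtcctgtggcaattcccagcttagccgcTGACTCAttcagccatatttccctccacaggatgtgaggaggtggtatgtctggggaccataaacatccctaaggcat

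A last region, 32.2 kb upstream of NID1 and between genes, was chosen after its motif count was seen. The 300 bp from the middle of this peak are chr1:236260427-236260726 on the plus strand. They consist mostly of a tandem repeat, with an AP-1 motif in each copy shown except the last. Capitals mark AP-1 motifs only.
NID1 repeat: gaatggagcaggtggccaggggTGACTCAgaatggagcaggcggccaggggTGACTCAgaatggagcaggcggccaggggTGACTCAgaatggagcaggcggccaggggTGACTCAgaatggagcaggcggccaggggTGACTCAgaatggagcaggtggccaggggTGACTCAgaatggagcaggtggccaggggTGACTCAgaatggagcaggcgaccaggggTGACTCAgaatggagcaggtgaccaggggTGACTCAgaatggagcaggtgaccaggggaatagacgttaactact
The whole siCTL peak of 350 bp held 10 AP-1 motifs, each starting 29 bp after the one before. Only 2 of 82901 siCTL peaks and 3 of 39320 siFra-1 peaks held 10 or more. The siFra-1 peak at the same place was 300 bp wide and held the same number of motifs.

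Matrix loci had fewer but wider peaks with siFra-1 than with siCTL, as did the whole lists. The siFra-1 to siCTL ratio of peak numbers was 0.618 (0.514 to 0.740), and at loci of the other protein-coding genes, where siCTL had 50495 and siFra-1 23411 peaks, it was 0.464 (0.456 to 0.471). The difference in number lay in the narrowest class. Peaks of 100 bp, the minimum in both lists, numbered 237 with siCTL and 106 with siFra-1, a ratio of 0.447 (0.352 to 0.565). Peaks of 150 to 200 bp numbered 45 and 37, a ratio of 0.822 (0.517 to 1.30). Peaks of 250 to 450 bp numbered 29 and 33, a ratio of 1.14 (0.670 to 1.94). For peaks of 500 bp and over the numbers were 8 and 21 and the order was turned, with a ratio of 2.62 (1.12 to 6.85). Without CCN1 they were 6 and 13. Over all peaks of the lists, the ratios of these width classes were 0.398, 0.577, 1.45 and 2.33. Each lay within the interval of the matrix loci.

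Peaks of 250 bp and over, called wide from here on, numbered 37 with siCTL and 54 with siFra-1, and the interval of their ratio of 1.46 (0.943 to 2.28) held 1. The ratio at other protein-coding loci was 1.59 (1.51 to 1.67), within that interval. The mean width of peaks at matrix loci was 144 bp with siCTL and 217 bp with siFra-1, against 121 bp and 163 bp at the other loci. The summed width was nearly level, at 45.9 kb over 319 peaks and 42.7 kb over 197 peaks.

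In both lists, wide peaks made up a larger share of the peaks at matrix loci than of those at other loci. The share with siCTL was 11.6% (8.30 to 15.6) against 4.63%, and with siFra-1 it was 27.4% (21.3 to 34.2) against 15.9%. Narrow peaks of 100 bp made up 74.3% (69.1 to 79.0) of siCTL peaks against 82.9%, and 53.8% (46.6 to 60.9) of siFra-1 peaks against 69.7%. These differences were larger than counting error, and whether they exceed the variation between cultures could not be assessed.

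**Figure D1:**
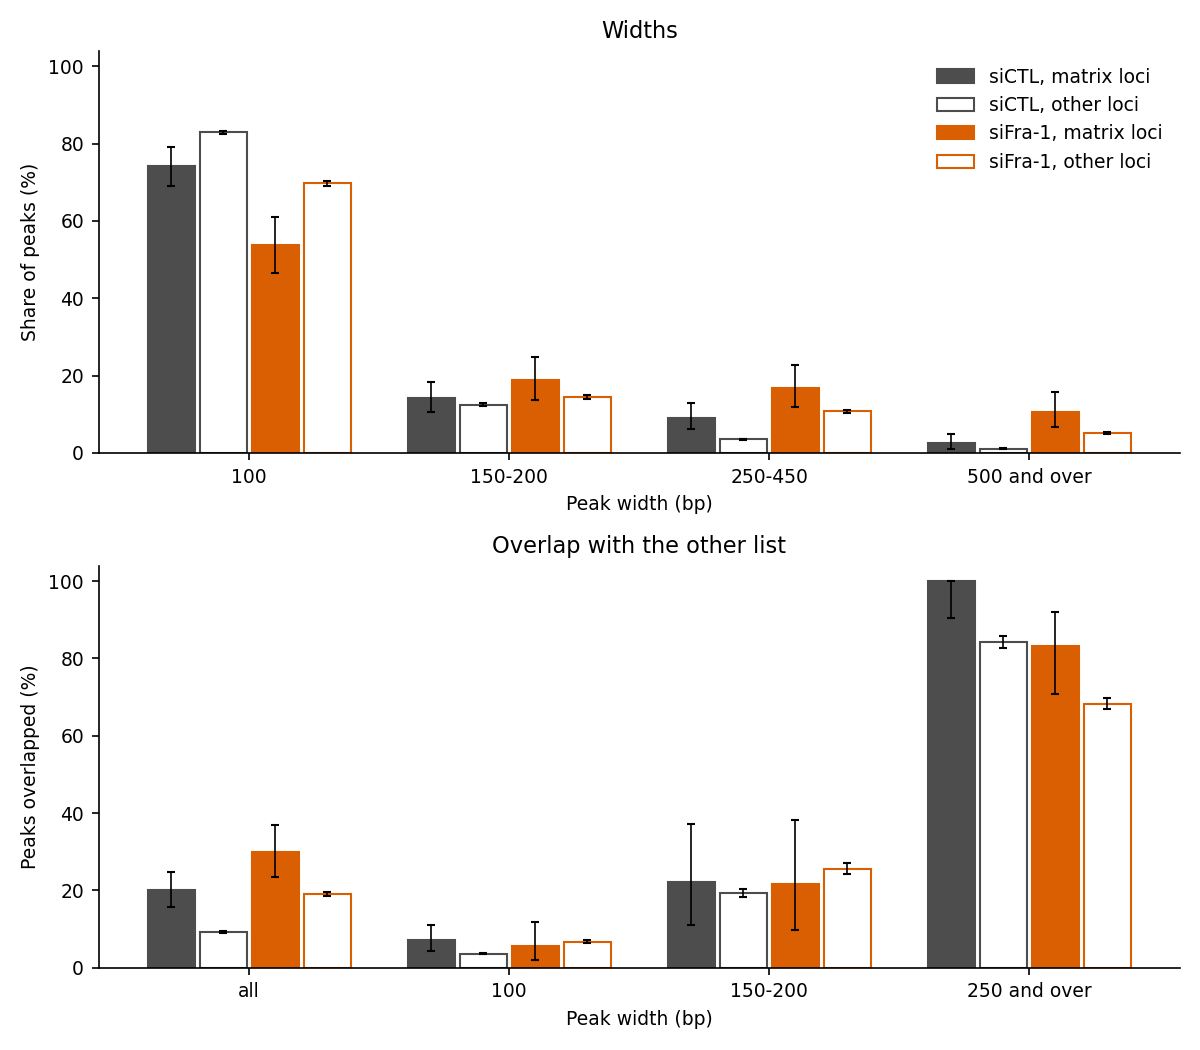
The upper plot gives the share of peaks (%) in each width class and the lower plot the share overlapped by a peak of the other list, for siCTL (grey) and siFra-1 (orange) at matrix loci (filled bars) and at other protein-coding loci (open bars), with 95% Clopper-Pearson intervals over peaks. Wide peaks are a larger share at matrix loci in both lists, and all 37 wide siCTL peaks at matrix loci are overlapped.

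A peak was called shared when it overlapped a peak of the other list by at least 1 bp. With siCTL, 64 of the 319 peaks at matrix loci were shared, or 20.1% (15.8 to 24.9), beside 9.56% of all siCTL peaks and 9.35% (9.10 to 9.61) of those at other loci. With siFra-1, 59 of 197 were shared, or 29.9% (23.6 to 36.9), beside 19.1% of all siFra-1 peaks and 19.2% at other loci. Sharing differed by width. All 37 wide siCTL peaks at matrix loci were overlapped by a siFra-1 peak (90.5% to 100%), beside 85.0% of all wide siCTL peaks. Of the 54 wide siFra-1 peaks, 45 were shared, or 83.3% (70.7 to 92.1), beside 68.2% of all wide siFra-1 peaks. Of the 100 bp siCTL peaks, 7.17% (4.23 to 11.2) were shared, beside 3.79% of all siCTL peaks of this width. Of the 100 bp siFra-1 peaks, 5.66% (2.11 to 11.9) were shared, beside 6.56%.

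If each peak at a matrix locus had been shared as often as peaks of its own width at other loci, with those of 500 bp and over as 1 class, 48.8 of the siCTL peaks and 55.3 of the siFra-1 peaks would have been shared. The counts were 64 and 59. The siFra-1 count thus lay close to the one that width gives, while the siCTL share of 20.1%, with a lower bound of 15.8%, lay over the 15.3% that width gives.

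Peaks found in both lists were mostly wider with siFra-1. Of the shared siCTL peaks, 17 were 100 bp, the minimum, and could have no narrower partner. The partner was the widest siFra-1 peak over each, and siCTL peaks under the same siFra-1 peak each counted. Of the 64 shared siCTL peaks, 45 had a wider siFra-1 partner, 7 an equal one and 12 a narrower one. The share with a wider partner was 70.3% (57.6 to 81.1), against 56.3% (54.9 to 57.7) at other loci. The median difference was 100 bp, beside 50 bp at other loci and 50 bp at the matrix loci without CCN1. The mean width of the pairs was 289 bp with siCTL and 439 bp with siFra-1, against 250 bp and 354 bp at other loci. CCN1 supplied 9 of the 64 pairs, all of them wider with siFra-1. Without this locus the share with a wider partner was 65.5% (51.4 to 77.8), whose interval holds the value at other loci. The mean widths were then 275 bp and 392 bp. Among the 37 wide siCTL peaks, 24 had a wider partner and 10 a narrower one. Their share with a wider partner was 64.9% (47.5 to 79.8), and 56.7% (37.4 to 74.5) without CCN1. Both intervals hold the 50.7% at other loci.

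**Figure D2:**
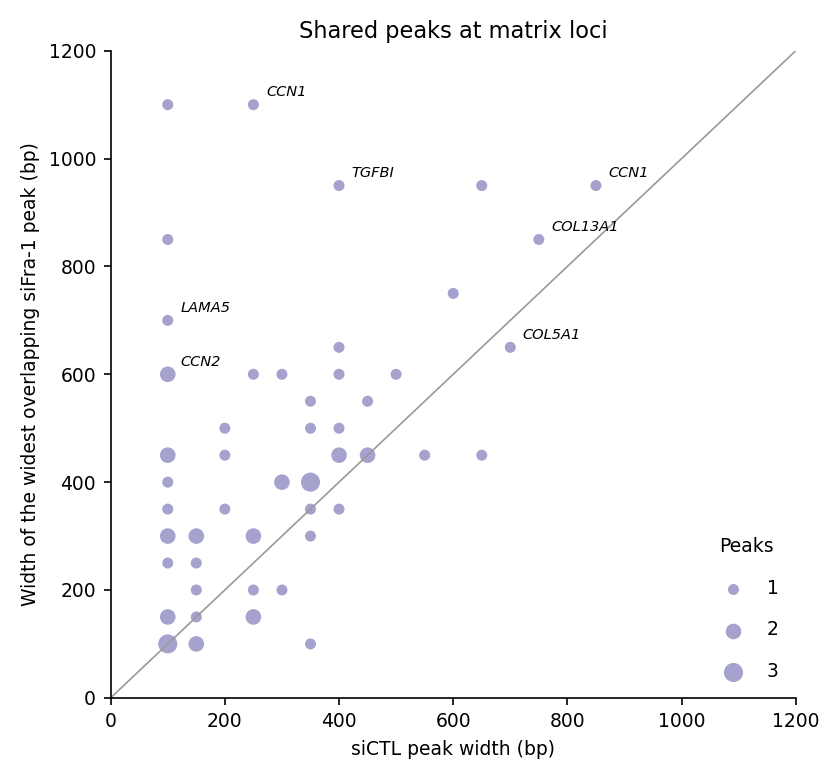
Width (bp) of the 64 siCTL peaks at matrix loci that overlap a siFra-1 peak, against the width (bp) of the widest siFra-1 peak over each, with the size of a point giving the number of peaks at it (1 to 3) and a line where both widths are equal. Of the 64, 45 lie over the line, and the farthest include peaks of CCN1, TGFBI, LAMA5 and CCN2.

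Counted by gene, 30 of the 37 members had fewer siFra-1 than siCTL peaks, or 81.1%, beside 81.9% of all protein-coding genes. More siFra-1 peaks lay at HSPG2, LAMA3, LAMB1, THBS1 and VCAN, which is 5 of 37 beside 7.33% of all genes. COL3A1 and LAMB3 had equal numbers, beside 10.8%. The share of members with fewer peaks was thus that of the genome. A siFra-1 run of signal broken into pieces counts as several peaks, and when peaks of a list within 500 bp of each other were merged, a count added after the data were seen, 28 members had fewer, 3 more and 6 equal, beside 82.6%, 6.60% and 10.8% of all genes.

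A wide peak in both lists was found at 19 members, or 51.4%, beside 17.0% of all protein-coding genes, and none in either list at 13 members, beside 68.2%. More wide peaks with siFra-1 were found at 15 members, beside 15.7%, fewer at COL6A3 and FBN2, beside 7.28%, and equal numbers at 20, beside 77.0%. Among the 24 members with any wide peak, the 15 with more make 62.5%, beside 49.5% of the 6403 genes with any wide peak, and the 2 with fewer make 8.33%, beside 22.9%.

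**Figure D3:**
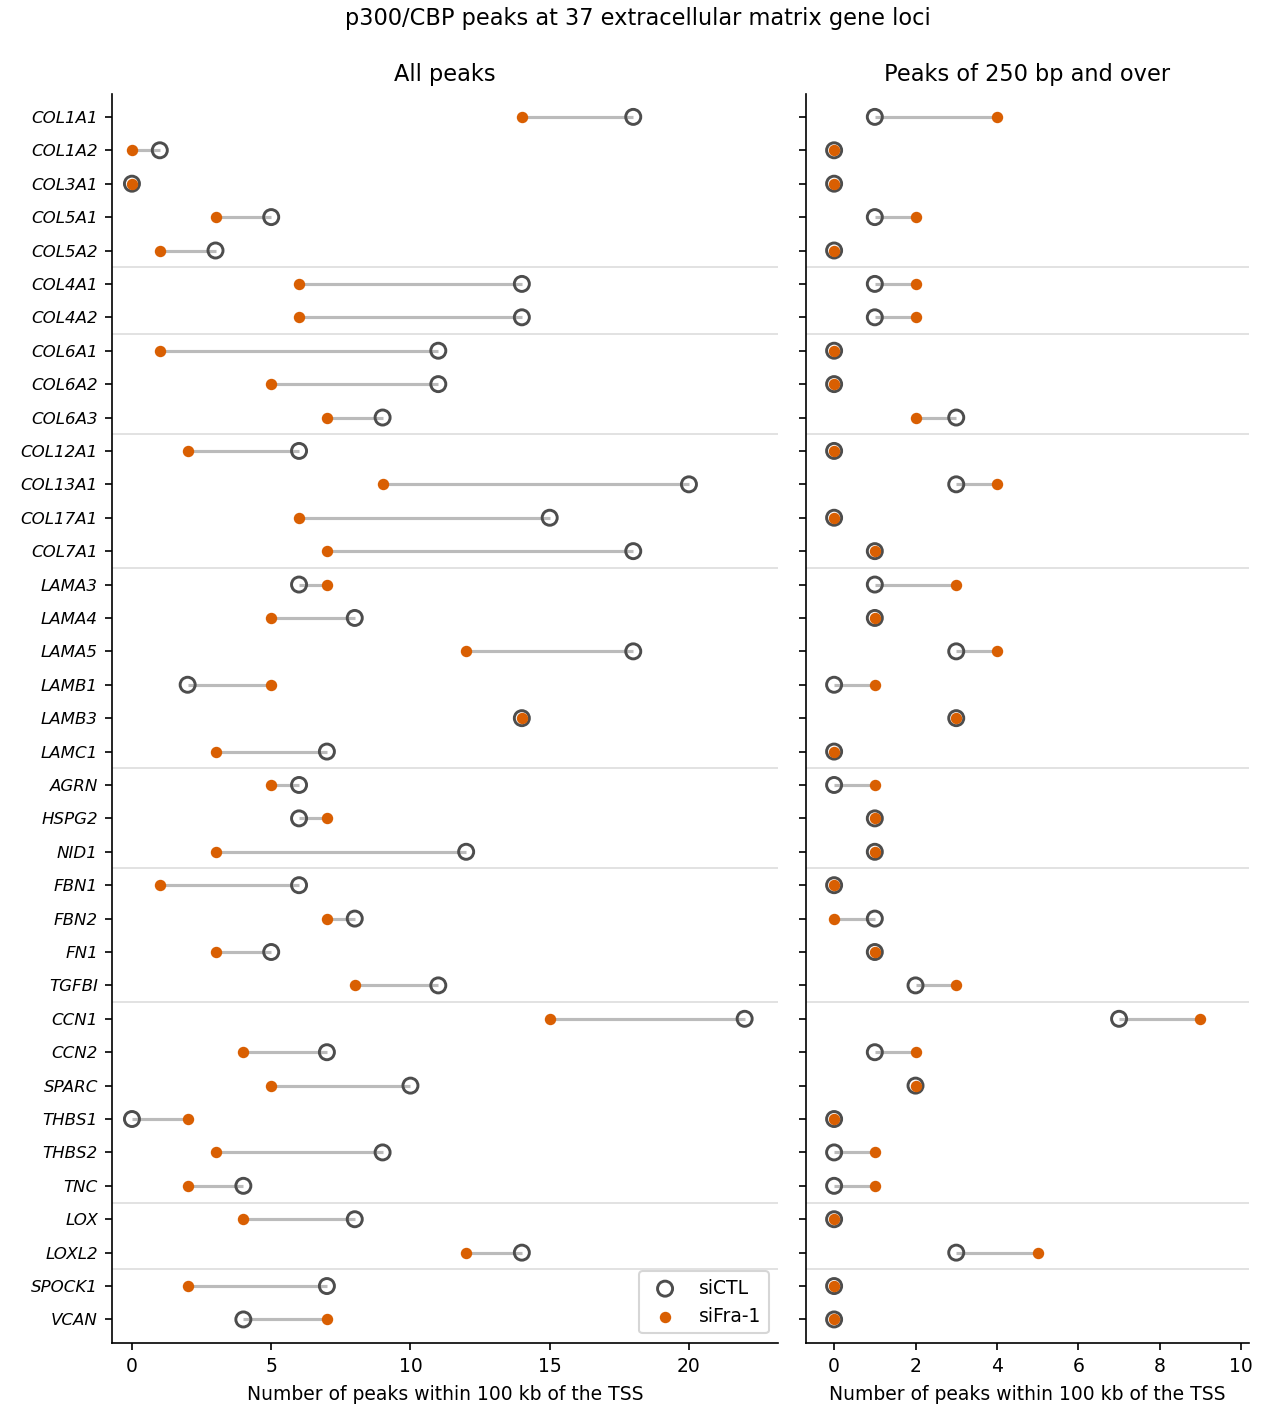
Number of siCTL peaks (open grey circles) and siFra-1 peaks (orange points) within 100 kb of the TSS of each of the 37 matrix genes, for all peaks on the left and for peaks of 250 bp and over on the right, with grey lines joining the conditions and dividing the functional groups. Most genes have fewer siFra-1 peaks on the left, and 15 have more on the right.

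Matrix loci also held more peaks than most genes, with a median of 13.0 peaks in both lists together against 9.0 over all protein-coding genes, so each member was set beside all other protein-coding genes whose total lay within 10%, and at least 1 peak, of its own. There were 351 to 3755 such genes per member. Summed over members, with a peak at 2 members counted at each, the loci held 38 wide siCTL peaks where genes of similar number held 18.9, and 56 wide siFra-1 peaks against 26.3. Shared siCTL peaks numbered 68 against 36.6, and shared siFra-1 peaks 63 against 35.3. The matching itself set the total of both lists close. Within it, the members held 339 siCTL peaks against 366 and 203 siFra-1 peaks against 172, a ratio of 0.599 against 0.471. Without CCN1, the wide share was 9.78% against 4.91% with siCTL and 25.0% against 14.8% with siFra-1.

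The peaks at matrix loci were mostly far from the TSS. The median distance was 36.9 kb with siCTL and 31.2 kb with siFra-1, and 8 siCTL peaks and 10 siFra-1 peaks lay within 1.5 kb. The matrix gene had the nearest protein-coding TSS for 64.6% of the siCTL and 66.0% of the siFra-1 peaks, so about 1 peak in 3 lay nearer to another gene. The centre was in an intron for 63.9% and 59.9%, in an exon for 9.72% and 7.61%, and between genes for 26.3% and 32.5%. A siCTL peak lay in the promoter window of 3 kb at 7 members (CCN1, CCN2, COL1A1, COL1A2, COL6A1, LAMA5 and LAMB3), or 18.9%, beside 16.0% of all genes. A siFra-1 peak lay there at 8 members (AGRN, CCN1, CCN2, COL1A1, FBN2, LAMB3, LOX and THBS1), or 21.6%, beside 9.20%. At AGRN, COL1A1, FBN2, LOX and THBS1 this siFra-1 peak was 100 bp, the minimum, as was the siCTL peak at COL1A2 and COL6A1. The same share was not computed for genes of similar peak number.

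By function, the fibrillar collagens COL1A1, COL1A2, COL3A1, COL5A1 and COL5A2, which form the banded fibres of connective tissue, held 27 siCTL and 18 siFra-1 peaks. COL1A1 and COL1A2 encode the chains of type I collagen, and their loci differed. COL1A1 held 18 siCTL and 14 siFra-1 peaks, of which 1 and 4 were wide. Of the 4 wide siFra-1 peaks, only the one 9.06 kb upstream, of 300 bp, had a siCTL partner, of 250 bp. The other wide ones had no siCTL partner, among them a peak of 300 bp near PPP1R9B.

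COL1A2 held a single siCTL peak of 100 bp, 1.21 kb upstream of its TSS, and no siFra-1 peak. COL3A1 held no peak in either list. No siCTL peak was found at 6.04% of all protein-coding genes and no siFra-1 peak at 18.9%, and among members these were COL3A1 and THBS1 for siCTL and COL1A2 and COL3A1 for siFra-1. COL5A1, a chain of the collagen V that starts fibril assembly, held 5 and 3 peaks. Its peak 39.0 kb upstream, the third widest siCTL peak of the matrix loci with a partner, was 700 bp with siCTL and 650 bp with siFra-1, and a siFra-1-only peak of 300 bp with an AP-1 motif lay 49.2 kb upstream. COL5A2 held 3 peaks of 100 bp with siCTL and 1 of 150 bp with siFra-1.

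COL4A1 and COL4A2, the sheet-forming collagens of basement membranes, start 1345 bp apart and shared all their peaks, 14 with siCTL and 6 with siFra-1. Near the TSS, in introns of COL4A2, the siFra-1 peaks 13.1 and 16.2 kb from the COL4A1 TSS were each 300 bp wide where siCTL had 100 bp. The peak at 83.4 kb was 250 bp with siCTL and 150 bp with siFra-1. The direction thus differed between peaks of the same locus.

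Collagen VI, which forms beaded filaments, held 25 siCTL and 13 siFra-1 peaks over COL6A1, COL6A2 and COL6A3. COL6A1 had one of the 3 largest differences in number, with 11 siCTL peaks and 1 siFra-1 peak, and none of them was wider than 150 bp or shared. COL6A2, 116342 bp away and with an overlapping window, held 11 and 5 peaks, none wide and none shared. COL6A3 held 9 and 7 peaks, and its 3 wide siCTL peaks each carried an AP-1 motif. The peak 51.4 kb upstream was 350 bp with siCTL and 100 bp with siFra-1. The peaks 86.7 and 88.4 kb upstream were 600 and 350 bp with siCTL and 750 and 400 bp with siFra-1, and lay in introns of MLPH, whose TSS was nearer.

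The anchoring, fibril-associated and transmembrane collagens COL7A1, COL12A1, COL13A1 and COL17A1 had the lowest ratio of the groups, with 59 siCTL and 24 siFra-1 peaks, or 0.407 (0.242 to 0.664). This interval holds the 0.464 at other protein-coding loci. COL13A1, a transmembrane collagen of cell adhesions, held 20 and 9 peaks, the largest difference in number with COL7A1. It lay in the narrow class, with 13 and 4 peaks of 100 bp. Its wide peaks in its own introns were nearly the same in both lists, 450 and 450 bp at 18.1 kb, 750 and 850 bp at 62.7 kb, and 350 and 350 bp at 67.6 kb. COL7A1, which forms anchoring fibrils in skin, held 18 and 7 peaks, of which 16 and 6 were 100 bp. Its wide peak was 450 bp in both lists, over the end of the gene and nearest to the TSS of UCN2. COL17A1, the hemidesmosome collagen, held 15 and 6 peaks and COL12A1, on the surface of fibrils, held 6 and 2, with none wide.

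**Figure D4:**
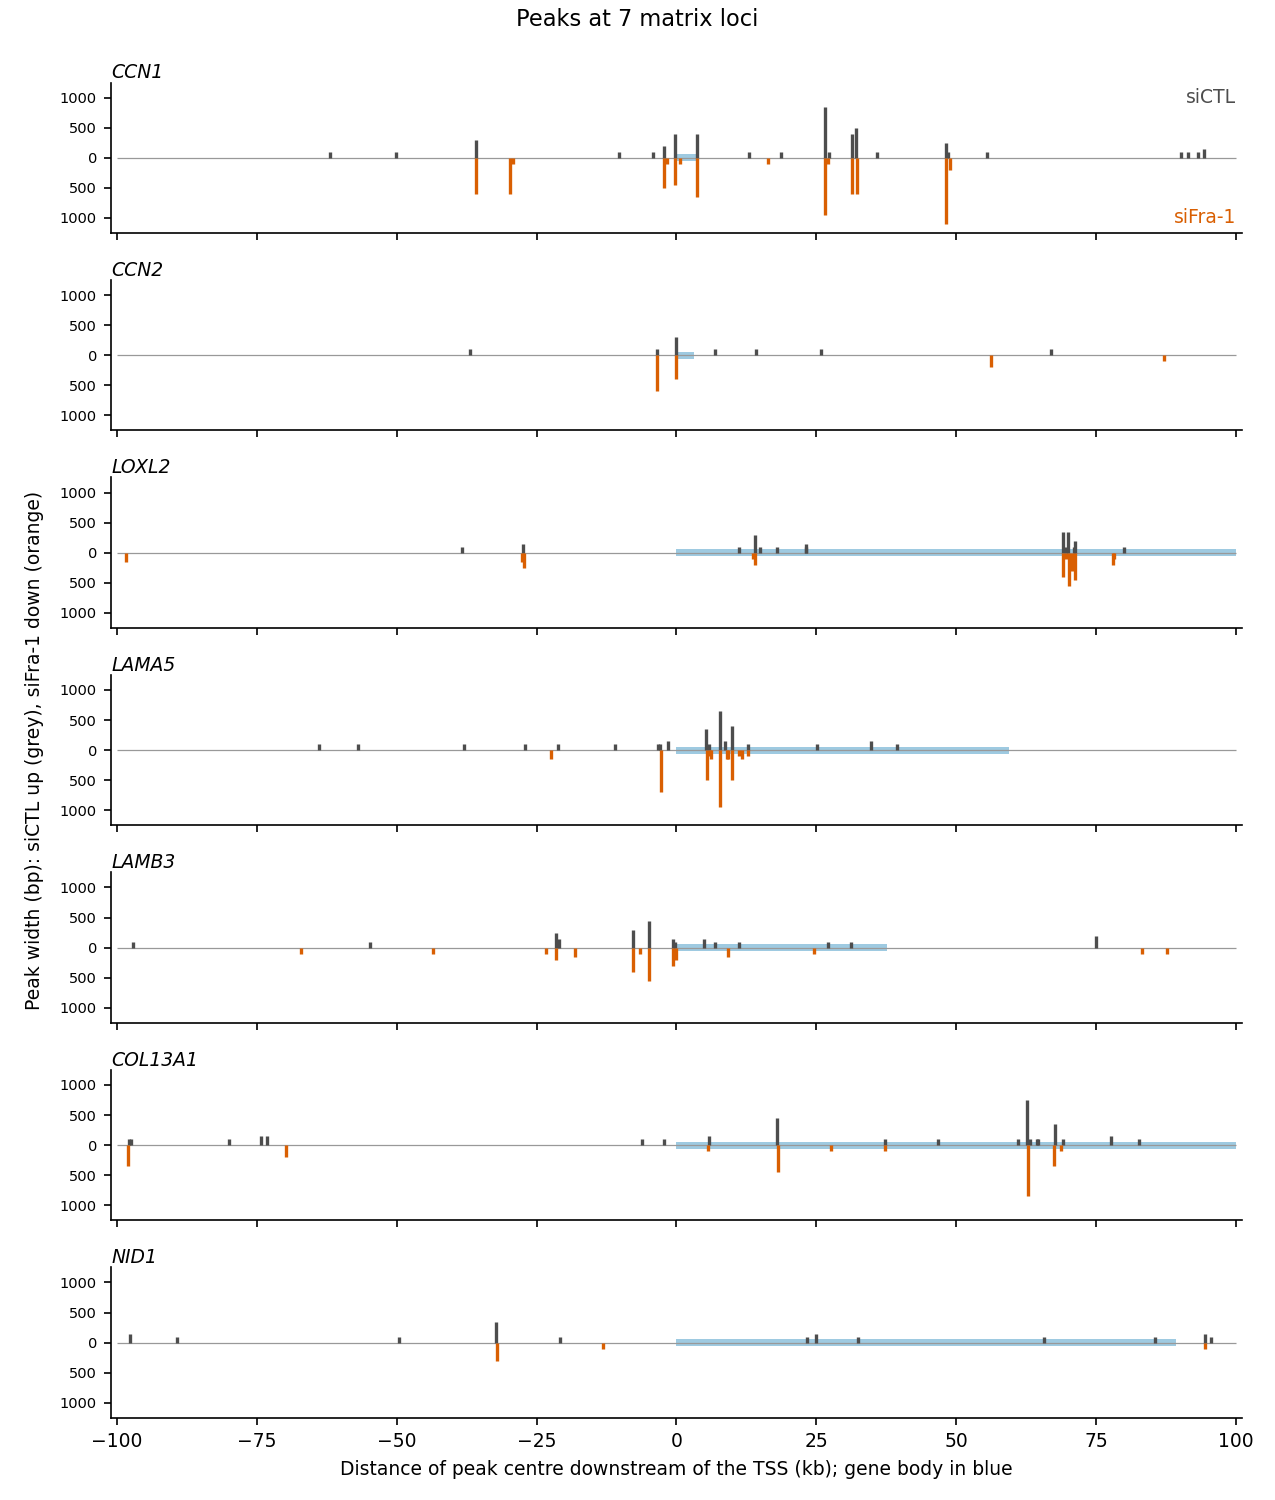
Peaks within 100 kb of the TSS of 7 matrix genes, placed by the distance (kb) of their centre downstream of the TSS, with the width (bp) as height, siCTL drawn upward in grey, siFra-1 downward in orange and the gene body in blue. Most tall bars stand at the same places in both lists, with exceptions such as the siFra-1-only peak of 600 bp 29.7 kb upstream of CCN1, while the short bars are mostly in 1 list.

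The laminins, the cross-shaped trimers of basement membranes, held 55 siCTL and 46 siFra-1 peaks over LAMA3, LAMA4, LAMA5, LAMB1, LAMB3 and LAMC1. Their ratio of 0.836 (0.553 to 1.26) was the highest of the groups, with VCAN and SPOCK1 next at 0.818 (0.300 to 2.17). Both intervals hold the 0.618 of all matrix loci, and the laminin interval lies over the 0.464 at other protein-coding loci. Part of the ratio depends on how runs break into pieces. After merging within 500 bp, the siCTL and siFra-1 peaks were 6 and 6 at LAMA3, 8 and 5 at LAMA4, 15 and 7 at LAMA5, 2 and 2 at LAMB1, 12 and 13 at LAMB3, and 7 and 3 at LAMC1. Before merging, the wide peaks of the laminins numbered 8 and 12. LAMA5, an alpha chain found in most basement membranes, held 18 and 12 peaks with 3 wide siCTL and 4 wide siFra-1 peaks, mostly in its own introns. These were 350 and 500 bp at 5.29 kb, 650 and 950 bp at 7.79 kb, and 400 and 500 bp at 9.97 kb. The peak 2.83 kb upstream was 100 bp with siCTL and 700 bp with siFra-1, and the siFra-1 peak held 1 AP-1 and 2 TEAD motifs.

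LAMB3 and LAMA3 encode chains of the laminin that anchors epithelia. LAMB3 held 14 peaks in each list, 3 of them wide in each, with 4 shared. Its promoter peak was 150 bp with siCTL and 300 bp with siFra-1, the peak 4.91 kb upstream 450 and 550 bp, the one 7.73 kb upstream 300 and 400 bp, and the one 21.6 kb upstream, nearest to G0S2, 250 and 200 bp. LAMA3 held 6 and 7 peaks with 1 and 3 wide, among them the siFra-1-only peak of 400 bp 62.0 kb upstream. Its wide siCTL peak, 550 bp and 450 bp with siFra-1, lay 95.5 kb upstream and nearest to NPC1.

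LAMB1, the beta chain of many laminins, held 2 siCTL and 5 siFra-1 peaks. In an intron 7.36 kb from the TSS, the siFra-1 peak was 400 bp with 2 TEAD motifs and the siCTL peak 100 bp. The other siFra-1 peaks, each of 100 bp, lay beside it at 7.66 and 7.86 kb and, on the other side of the TSS, at 25.0 and 25.2 kb upstream. After merging within 500 bp both lists had 2 peaks. LAMA4 held 8 and 5 peaks, with a wide peak of 250 and 300 bp in its own intron. LAMC1, the shared gamma chain, held 7 and 3 peaks, none wide, the widest being a siFra-1-only peak of 150 bp with an AP-1 motif, 55.4 kb upstream.

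The linkers of the basement membrane NID1, HSPG2 and AGRN held 24 siCTL and 15 siFra-1 peaks. NID1, nidogen, held 12 and 3 peaks, with the repeat region as its only wide peak in either list. HSPG2, perlecan, held 6 and 7 peaks, and its intronic peak near 6.23 kb was 250 bp with siCTL and 600 bp with siFra-1, with 2 TEAD motifs in each. AGRN, agrin, held 6 and 5 peaks, and its intronic peak at 4.68 kb was 350 bp with siFra-1 and 200 bp with siCTL.

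The structural and adhesive glycoproteins FN1, FBN1, FBN2 and TGFBI held 30 siCTL and 19 siFra-1 peaks. FN1, fibronectin, held 5 and 3 peaks, and its only wide peak, 92.7 kb upstream, was 350 and 400 bp. TGFBI, an adhesion protein induced by TGF-beta, held 11 and 8 peaks. Its wide siFra-1 peaks were 450, 950 and 250 bp, where siCTL had 400, 400 and 100 bp, and each of the 3 siFra-1 peaks held 1 AP-1 motif. FBN1 and FBN2, the fibrillins of elastic microfibrils, held 6 and 1 and 8 and 7 peaks, with a peak of 250 bp at FBN2 with siCTL and 150 bp with siFra-1.

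The matricellular proteins CCN1, CCN2, TNC, THBS1, THBS2 and SPARC held 52 siCTL and 31 siFra-1 peaks, and their mean width was 174 bp with siCTL and 334 bp with siFra-1. Without CCN1, the other 5 loci had a mean width of 143 bp over 30 siCTL peaks and 225 bp over 16 siFra-1 peaks. CCN1 held most peaks of any member, 22 and 15, and most wide peaks, 7 and 9. At least 7 wide siCTL peaks were found at 0.104% of protein-coding genes and at least 9 wide siFra-1 peaks at 0.184%. The summed width at CCN1 was 4750 bp over 22 siCTL peaks and 6750 bp over 15 siFra-1 peaks. Its promoter peak was 400 and 450 bp. The peak 26.6 kb downstream was 850 and 950 bp, those at 31.4 and 32.1 kb were 400 and 500 bp with siCTL and 600 bp each with siFra-1, and that over the end of the gene was 400 and 650 bp. The widest peak of the matrix loci, 1100 bp with siFra-1 and 48.2 kb downstream, lay over 2 siCTL peaks, the wider of them 250 bp. The siFra-1-only peak of 600 bp, 29.7 kb upstream, lay in an intron of DDAH1, the neighbouring gene.

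CCN2, also called CTGF, held 7 siCTL and 4 siFra-1 peaks. Its promoter peak, with the 3 TEAD motifs, was 300 bp with siCTL and 400 bp with siFra-1. The region 3.44 kb upstream, with the adjoining TEAD and AP-1 motifs, was 100 bp with siCTL and 600 bp with siFra-1. SPARC, a collagen-binding protein, held 10 and 5 peaks, and both its wide peaks were narrower with siFra-1. They were 650 and 450 bp at 58.3 kb upstream and 400 and 350 bp at 54.9 kb upstream. TNC, tenascin-C, held 4 and 2 peaks, with a siFra-1-only peak of 250 bp in its own intron. THBS1 and THBS2, the thrombospondins, held 0 and 2 and 9 and 3 peaks. Both THBS1 peaks were 100 bp, and the one at the TSS held a TEAD motif.

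The crosslinkers LOX and LOXL2, which join collagen and elastin chains, held 22 siCTL and 16 siFra-1 peaks. LOXL2 held 14 and 12 peaks, with 3 and 5 wide. In an intron near 70.0 kb downstream of its TSS, siCTL had wide peaks of 350 and 350 bp and narrower ones of 200, 100 and 100 bp. There, siFra-1 had wide peaks of 400, 550, 300 and 450 bp between 69.0 and 71.2 kb, and a narrow one of 100 bp. At 14.1 kb the peak was 300 bp with siCTL and 200 bp with siFra-1. LOX held 8 and 4 peaks, all of 150 bp or less. The proteoglycans VCAN and SPOCK1 held 11 and 9 peaks, with no wide and no shared peak. VCAN, versican, held 4 and 7 peaks, the largest difference upward with LAMB1, and 4 and 5 after merging. SPOCK1, testican-1, held 7 and 2.

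The widest siCTL peaks at matrix loci without a siFra-1 partner were only 200 bp, 1 at LAMB3 and 2 at SPARC, and these were nearest to CAMK1G, G3BP1 and ATOX1. Of the 255 unshared siCTL peaks, 220 were 100 bp, or 86.3% (81.4 to 90.2), beside 88.7% of all unshared siCTL peaks. Of the 138 unshared siFra-1 peaks, 100 were 100 bp, or 72.5% (64.2 to 79.7), beside 80.8%. The 9 wide ones made up 6.52% (3.03 to 12), beside 6% of all unshared siFra-1 peaks, so their share was near that of the whole list. None of the 255 unshared siCTL peaks was wide, beside 0.731% of the unshared peaks in the whole list. The wide siFra-1-only peaks lay at COL1A1, CCN1, LAMA3, COL5A1, THBS2, TNC and LOXL2.

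The AP-1 motif lay in the central 200 bp of 31 of 319 siCTL peaks at matrix loci, or 9.72% (6.70 to 13.5), beside 6.15% of all siCTL peaks. With siFra-1 it lay in 25 of 197, or 12.7% (8.38 to 18.2), beside 9.08%. Windows moved by 2 kb held it in 2.19% and 3.05%. The motif went with width and sharing, as in the whole lists. It lay in 25.0% (15.0 to 37.4) of shared siCTL peaks, beside 22.2% of all shared siCTL peaks, and in 5.88% (3.33 to 9.52) of unshared ones, beside 4.46%. With siFra-1 it lay in 23.7% (13.6 to 36.6) of shared peaks, beside 22.8%, and in 7.97% (4.05 to 13.8) of unshared ones, beside 5.83%. With the share of each width taken from other loci, 27.7 siCTL and 25.1 siFra-1 peaks would hold it, against 31 and 25. The AP-1 share at matrix loci was therefore close to that of peaks of the same width elsewhere.

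The TEAD motif lay in 17.6% (13.5 to 22.2) of siCTL peaks at matrix loci against 12.5% at other loci, and in 21.3% (15.8 to 27.7) of siFra-1 peaks against 16.4%. Over all peaks of a list the share was 13.2% with siCTL and 17.4% with siFra-1. Without CCN1 the matrix loci had 16.5% (12.5 to 21.2) and 20.3% (14.7 to 26.9). Windows moved by 2 kb held the TEAD motif in 13.2% and 10.7%. In shared peaks its share was 37.5% (25.7 to 50.5) against 23.9% (22.7 to 25.1) with siCTL, and 37.3% (25.0 to 50.9) against 25.0% (23.8 to 26.3) with siFra-1. Over all shared peaks of a list it was 28% with siCTL and 28.4% with siFra-1, both within the intervals of the matrix loci. Taking the share of each width from other loci, 43.7 siCTL and 36.9 siFra-1 peaks would hold it, against 56 and 42. The RUNX motif lay in 16.3% and 18.8%, against 16.0% and 18.4% at other loci.

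**Figure D5:**
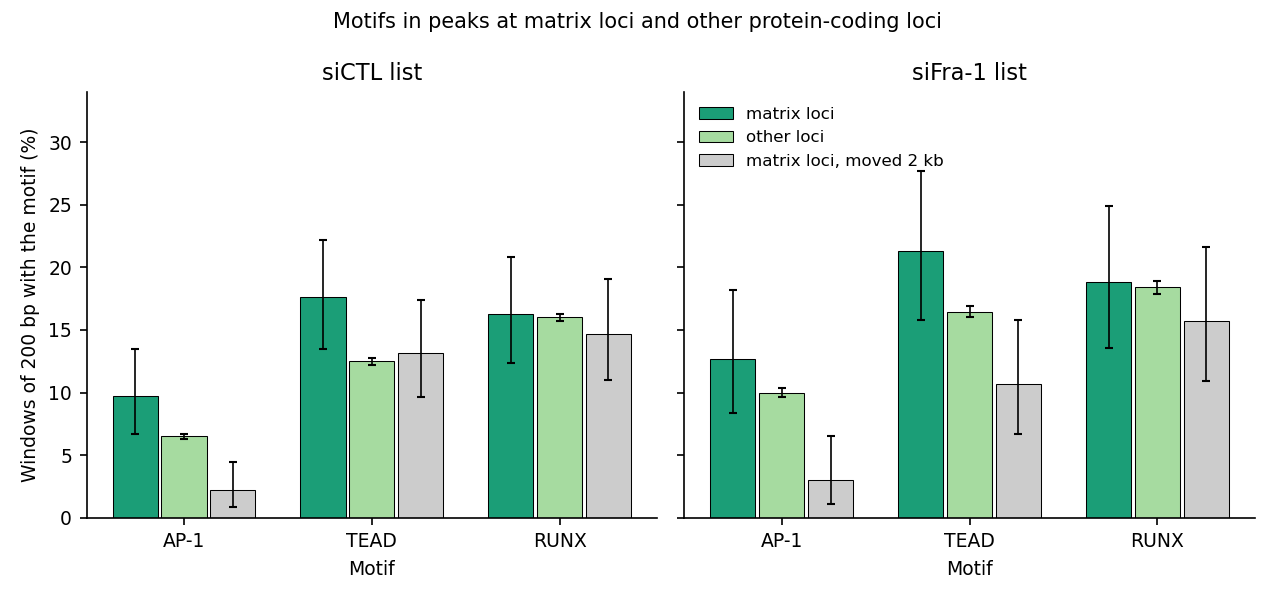
Share (%) of windows of 200 bp that hold the AP-1, TEAD or RUNX motif, for siCTL peaks on the left and siFra-1 peaks on the right, at matrix loci (dark green), at other protein-coding loci (light green) and for matrix windows moved by 2 kb (grey), with 95% Clopper-Pearson intervals over windows. AP-1 letters are more frequent in peaks than in moved windows in both lists, and the intervals of matrix loci are wide.

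At least 1 peak with an AP-1 motif in the central window lay at 18 members with siCTL and at 14 with siFra-1, and in either list at 21 of 37, with COL4A1 and COL4A2 counted separately. These were 48.6%, 37.8% and 56.8% of members, beside 32.7%, 23% and 40.1% of all protein-coding genes. Genes of similar peak number would give 15.4, 11.4 and 18.8 members. CCN1, with most wide peaks, was not among them. None of its 22 siCTL or 15 siFra-1 peaks held AP-1 letters in the central 200 bp, and 7 and 5 held TEAD letters. Over whole peaks, only the one 26.6 kb downstream held an AP-1 motif in either list. At COL6A3 and TGFBI, by contrast, each wide siCTL peak held one in the central window, as did the only wide siCTL peaks of FN1, NID1 and COL7A1. Wide siCTL peaks of LAMB3 and LOXL2, 3 at each, and the 2 of SPARC held none. In all, 10 of the 37 wide siCTL peaks held the motif there, or 27.0% (13.8 to 44.1), beside 31.9% of all wide siCTL peaks. With siFra-1 it was 16 of 54, or 29.6% (18 to 43.6), beside 22.9%. How these letters relate to the width with siFra-1 was not tested.

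A further 82 matrix genes, listed by name from other collagens, laminins, glycoproteins, crosslinkers and proteoglycans, held 629 peaks with siCTL and 315 with siFra-1, and their ratio was 0.501 (0.436 to 0.574). Of these, 67 had fewer siFra-1 peaks, 6 more and 9 equal numbers. Wide peaks in both lists were found at 17 of the 82, or 20.7%, beside 17.0% of all genes and 51.4% of the 37 members. Wide peaks numbered 38 and 61, or 6.04% (4.31 to 8.20) of siCTL and 19.4% (15.1 to 24.2) of siFra-1 peaks. Shared peaks made up 14.0% (11.4 to 16.9) and 25.4% (20.7 to 30.6). The intervals of these shares overlapped those of the 37 loci in each case except the wide siCTL share. With CCN1 left out of the members alone, a choice made after the data were seen, that share was 10.1% (6.92 to 14.1). Its interval then overlapped too. Overlap of intervals does not show that the shares were alike. No test of the differences was made.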

How the data were processed

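p300/CBP ChIP-seq was carried out in MDA-MB-231 cells, with 1 siCTL and 1 siFra-1 library made from pooled replicate immunoprecipitations and an input sample that was not analysed here. Per the study's methods, reads were aligned to hg19 with BWA-backtrack, while the submitters' processing notes name Bowtie2. The authors then binned the signal by 50 bp with PASHA, scaled it and subtracted the background. Peaks were runs over a threshold of 25 in the Integrated Genome Browser, with a gap and a run of 50 bp. A further parameter of 79 for siCTL and 130 for siFra-1 has no stated meaning. A difference in enrichment, scaling or complexity between the libraries changes the number and width of peaks as a difference in occupancy would, and cannot be told apart from it. The deposited lists give positions alone (chromosome and both ends), with no counts, fold values or signal, so the depth is unknown and the precision that it gives cannot be stated.

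Starts were raised by 1, which would be 1 bp too many had the authors counted from 1 already. Genes came from GENCODE release 44 on GRCh37, with the TSS at the 5′ end of the gene record. Overlap, distances and motifs were computed with numpy 2.4.6, scipy 1.17.1 and pandas 2.3.3 under Python 3.11.15 (plots: matplotlib 3.10.9). A simulation with known answers covered overlap, the peaks within a gene window and the AP-1 motif, and none of those put in was missed. Overlap was also compared with the result of bedtools 2.31.1. The simulation did not cover the other steps. Peaks near both a member and another gene were counted with the members. Alternatives were gene windows of 50 and 250 kb, canonical TSS, minimum widths, merging, other overlap rules and motif definitions, and members near assembly gaps left out. The members, the further matrix genes and all rules were chosen with earlier results of these data known. All members were given by number, and in full those with the 3 largest differences each way in all and wide peaks, the 5 with most wide peaks and those without a peak in 1 list. Peaks were named when among the 3 widest shared, siCTL-only or siFra-1-only ones, when wide within 1.5 kb of a TSS, or when widest at CCN1, CCN2, TNC, THBS1, FN1 or LAMC1. Other peaks described and the NID1 repeat were chosen after their values were seen. The sequence of 1 named peak is not reported here.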

Additional observations from a re-analysis of the deposited data

How the results depend on the processing

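Of 68 values recomputed under other settings, 52 kept their direction and moved by less than their counting error or, for counts of genes, by less than 1.5 times. The settings that changed results were mainly a minimum width. Among peaks of 150 bp and over the siFra-1 to siCTL ratio of peak numbers was 1.11 (0.814 to 1.51). Among those of 250 bp and over it was 1.46 (0.943 to 2.28). Both values lay over 1, but both intervals held 1. With these minimum widths, 11 and 2 members had fewer siFra-1 peaks in place of 30. The 2 members at 250 bp and over make 5.41%, beside 7.28% of all protein-coding genes. For 150 bp and over the share of all genes was not computed, so the 11 cannot be set beside it. With both lists cut at these minimum widths, the shared part of siCTL peaks was 53.7% and 86.5%, and that of siFra-1 peaks 48.4% and 59.3%. The AP-1 share was then 15.9% and 27.0% with siCTL and 20.9% and 29.6% with siFra-1. Asking for an overlap of 50% of both peaks gave shared parts of 13.2% with siCTL and 21.3% with siFra-1, a gap of up to 200 bp counted as shared gave 38.1% with siFra-1, and a window of 250 kb gave 14.5% with siCTL. Merging peaks within 500 bp took the ratio for wide peaks from 1.46 to 1.14 (0.766 to 1.70). Leaving out CCN1, chosen after seeing the data, moved none of the 9 results by more than their counting error. Leaving out AGRN, COL6A1 and COL6A2, which lie near assembly gaps or chromosome ends, did the same. No paired analysis was possible because each condition is 1 library. Depth limits every value to an unknown extent, since the lists hold positions only.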
